A study of Homo sapiens with 6 samples.

Results

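The miR-106b-25 cluster consists of 3 miRNA hairpins, miR-106b, miR-93 and miR-25, that lie together in an intron of MCM7, a gene for a subunit of the helicase that licenses DNA replication. Its 6 mature products, hsa-miR-106b-5p, hsa-miR-106b-3p, hsa-miR-93-5p, hsa-miR-93-3p, hsa-miR-25-3p and hsa-miR-25-5p, were chosen by name and were all found among the 2588 mature human miRNAs of the deposited expression table. The cluster was selected with its deposited counts and TPM values and earlier comparisons of these samples known. No threshold was applied to the members, their values are given as a description, and the p-values beside them are no independent evidence. The samples were Huh7 cells, a human hepatoma cell line, that had been transfected by lipofection with a plasmid for the circular RNA hsa_circ_0098181 (overexpression group, 3 samples) or with the control plasmid (control group, 3 samples). RNA was taken 48 h after transfection from both groups, so that transient transfection is common to them. No label says that the 3 samples of a group were separate cultures, so that p-values measure the spread between these samples, which may be technical.

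A miRNA hairpin is cut to a short duplex, from which the 5p arm or the 3p arm is loaded into an Argonaute protein and pairs with messenger RNAs through its seed, bases 2 to 8. The cluster is a paralog of the miR-17-92 cluster on chromosome 13 and of the miR-106a-363 cluster on chromosome X. These clusters are known for promoting proliferation, in part by lowering cell cycle inhibitors such as p21 and the proapoptotic protein BIM. MCM7 and its intronic miRNAs are known targets of E2F transcription factors and are often abundant in liver cancer. The miRNA counts used here do not include MCM7 messenger RNA. The authors also sequenced messenger RNA of Huh7 cells with hsa_circ_0098181, which was not used here.

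The mature sequences of the members are shown because they decide which miRNAs act alike and which reads could be confused. They were taken from RefSeq (GRCh38.p14, minus strand of chromosome 7) and run 5′ to 3′ with the seed in capitals.
hsa-miR-106b-5p: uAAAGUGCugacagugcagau
hsa-miR-93-5p: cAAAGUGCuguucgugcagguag
hsa-miR-25-3p: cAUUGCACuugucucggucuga
hsa-miR-106b-3p: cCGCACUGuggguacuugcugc
hsa-miR-93-3p: aCUGCUGAgcuagcacuucccg
hsa-miR-25-5p: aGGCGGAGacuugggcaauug

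miR-106b-5p and miR-93-5p carry the same seed, AAAGUGC, which RefSeq gives to 8 human miRNAs, among them miR-17-5p, miR-20a-5p, miR-20b-5p and miR-106a-5p of the paralog clusters. miR-25-3p carries the seed AUUGCAC, which is found in 6 human miRNAs, among them miR-92a-3p, miR-92b-3p, miR-363-3p and miR-32-5p. All 8 and all 6 were listed in the expression table. The seeds of miR-106b-3p, miR-93-3p and miR-25-5p were each found in a single human miRNA, the member itself. The most abundant other miRNAs with these seeds are printed for comparison, with the seed again in capitals.
hsa-miR-17-5p: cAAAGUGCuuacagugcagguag
hsa-miR-20a-5p: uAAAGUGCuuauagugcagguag
hsa-miR-92a-3p: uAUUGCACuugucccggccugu

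miR-93-5p differed from miR-17-5p and miR-20b-5p by 3 single-base edits each and from miR-20a-5p by 4, and miR-25-3p differed from miR-92a-3p by 4. miR-106b-5p, which is annotated with 21 bases, was 5 edits from miR-17-5p (23 bases) and 7 from miR-93-5p, with end positions counted as edits. How the authors treated reads that match several miRNAs is not given in the sources used here, so that counts of these relatives are uncertain to that extent.

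In GENCODE release 29 (GRCh38), MIR25 lies at chr7:100093560-100093643, MIR93 at chr7:100093768-100093847 and MIR106B at chr7:100093993-100094074, all on the minus strand like MCM7 (chr7:100092728-100101940). The span of the 3 hairpins is 515 bases. In the MCM7 transcript with 15 exons all 3 lie in the intron between exons 13 and 14 (chr7:100093402-100094172), and no annotated MCM7 exon overlaps a hairpin. The positions of MIR25 and MIR106B were identical in RefSeq.

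The deposited counts summed to between 7144798 and 10786295 per sample, with a median of 8379124, and the deposited TPM values equal the count scaled by that total (CPM). Levels below are CPM after TMM normalization, for which the TMM factors were 0.921 to 0.996 in the overexpression group and 1.00 to 1.09 in the control group. Control replicate 3 stood apart. Its median absolute log2 difference from control replicates 1 and 2 over 152 abundant miRNAs was 0.21, against 0.049 between those replicates, so that the fold change of each member is also given without it. From overexpression replicates 1 to 3 it differed by 0.12, 0.19 and 0.16, less than from its own group. Leaving it out thus narrows the spread of the control group, a limit on all p-values given without it. The liver miRNAs miR-122-5p, miR-192-5p and miR-194-5p were abundant in every sample, with miR-122-5p at no less than 306227 TPM. Of 11 marker miRNAs of blood, muscle, stroma, endothelium and neurons, none was at 0 in every sample. Their summed level was 3404 to 3499 TPM in the overexpression group and 3320 to 3407 TPM in the control group, of which miR-126-3p, an endothelial miRNA, made up 3053 TPM or more. miR-142-3p, a marker of blood cells, was at 9.81, 9.11 and 9.85 CPM in the overexpression group and at 12.1, 16.3 and 12.2 CPM in the control group after normalization. All its overexpression samples were below all control samples, as was also found for miR-106b-5p. The log2 fold change of miR-142-3p was -0.50 (edgeR's adjusted p = 0.314). Without control replicate 3, miR-142-3p was called lower (-0.57, edgeR's adjusted p = 0.0182). The other blood markers had higher means in the overexpression than in the control group. These were 0.46 against 0.21 CPM for miR-142-5p, which had 1 to 4 counts per sample, and 2.11 against 1.47 CPM for miR-223-3p. For miR-150-5p they were 1.56 against 1.16 CPM. miR-126-3p was also higher, at 3367 against 3007 CPM, with no overlap of the groups. Of the muscle, stroma and neuron markers, miR-145-5p and miR-143-3p had log2 fold changes of -0.30 and -0.023. Those of miR-1-3p, miR-124-3p and miR-9-5p were 0.090, 0.33 and 0.082. edgeR called none of them, and miR-133a-3p had 0 to 2 counts per sample. The part of these markers in the results was not tested. In such bulk samples, fewer cells with a miRNA and less of it per cell cannot be told apart.

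The cluster was dominated by miR-25-3p and miR-93-5p. miR-25-3p held 2.97% of all counts over the 6 samples and ranked 6 among all miRNAs by mean TPM, and miR-93-5p held 2.85% and ranked 8. The other 4 members ranked far lower, from 95 (miR-106b-5p) to 136 (miR-25-5p). By mean count the order was miR-25-3p, miR-93-5p, miR-106b-5p, miR-106b-3p, miR-93-3p and miR-25-5p. miR-25-3p and miR-93-5p were not separated, since miR-25-3p was the higher in 5 of 6 samples and their ratio ran from 0.945 to 1.09. miR-93-5p had 59.4 to 109 times the counts of miR-106b-5p. Each later member was below the one before it in 6 of 6 samples, by a ratio of 1.04 to 1.82 between the arms of miR-106b. The members have 21 to 23 bases, so that no length correction was needed.

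**Figure D1:**
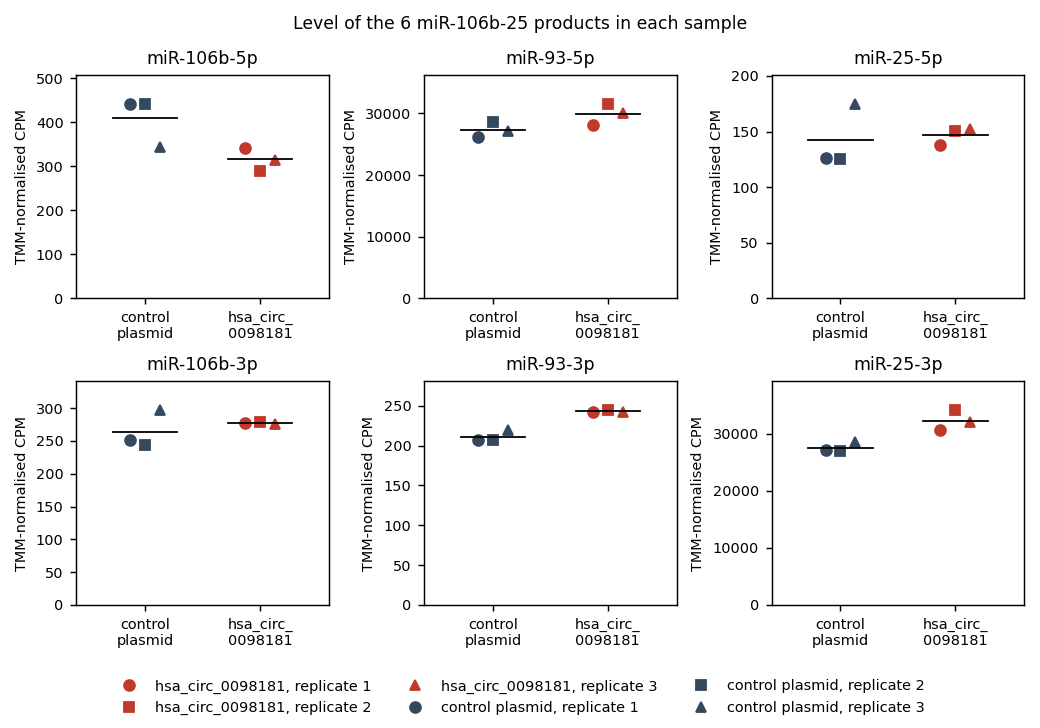
Level of each member in TMM-normalised CPM (vertical axes, from 0) in the 3 control and 3 overexpression samples, with a point for each sample and a line for the group mean. miR-25-3p and miR-93-3p of the overexpression samples lie above all control samples, miR-106b-5p lies below them, and control replicate 3 has the highest miR-25-5p and miR-106b-3p.

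The products of this single intron did not share a direction between the groups. With hsa_circ_0098181, the log2 fold change was below 0 for miR-106b-5p and above 0 for the other 5 members, of which miR-106b-3p and miR-25-5p turned below 0 with the library size alone, a scaling that moved the median of all miRNAs to -0.11. Of the 6 members, all of which passed the filter on low counts, 0 passed an adjusted p of 0.05 in edgeR's quasi-likelihood test, as did 0 of all 552 miRNAs tested (0.00%). DESeq2 and limma likewise called 0 miRNAs. At an unadjusted p under 0.05, 50 miRNAs were found by edgeR, 41 by DESeq2 and 52 by limma. The median log2 fold change was 0.10 over the members and 0.0038 over all miRNAs tested, whose standard deviation was 0.26. The groups did not overlap for 3 of the 6 members, namely miR-106b-5p, miR-93-3p and miR-25-3p, against 15.4% of all miRNAs tested. In the deposited TPM, a comparison added after the data were seen, they did not overlap for 1 of the 6, miR-106b-5p, against 18.3%.

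miR-106b-5p, which shares its seed with miR-17-5p, had 342, 290 and 314 CPM in overexpression replicates 1 to 3, compared with 442, 442 and 343 CPM in control replicates 1 to 3. Its counts behind these values were 2260 to 2722 and 2666 to 4785. All overexpression samples were below all control samples, but overexpression replicate 1 and control replicate 3 were less than 1 CPM apart. The group means were 316 ± 26.3 and 409 ± 57.1 CPM (SD, n = 3). In edgeR's fit the log2 fold change came to -0.37 with a standard error of 0.12 (95% confidence interval -0.63 to -0.12) and an adjusted p of 0.314. Without control replicate 3 it was -0.50 (standard error 0.085, adjusted p = 1.90e-05 from edgeR), in a fit that called 56 of 565 miRNAs (9.91%).

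The other arm of this hairpin, miR-106b-3p, was nearly level in the overexpression group, with 278, 278 and 276 CPM in replicates 1 to 3. In control replicates 1 to 3 it was at 252, 243 and 297 CPM, so that the overexpression samples lay between control replicates. Its log2 fold change came to 0.072 ± 0.10 (SE, edgeR's adjusted p = 0.800) and was -0.047 with the library size alone, so that no direction can be given. Without control replicate 3 it was 0.15 (edgeR's adjusted p = 0.360).

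miR-93-5p, the second miRNA of the cluster with the AAAGUGC seed, was at 28117, 31550 and 30072 CPM in the overexpression group and at 26222, 28514 and 27131 CPM in the control group. The groups overlapped, because overexpression replicate 1 was below control replicate 2. In edgeR's fit the log2 fold change came to 0.13 with a standard error of 0.069 (95% confidence interval -0.016 to 0.28) and an adjusted p of 0.568, and 0.11 without control replicate 3 (adjusted p = 0.300 from edgeR). Scaled by library size only, it was 0.015 (edgeR's adjusted p = 0.955), and it was 0.054 when miR-122-5p was taken out of the library size, so that its size depends on the scaling.

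miR-93-3p, the rare arm of the hairpin, was at 242, 244 and 243 CPM in the overexpression group and at 207, 207 and 219 CPM in the control group. On this scale every overexpression sample was above every control sample, but in the deposited TPM control replicate 3, at 238, was above overexpression replicates 2 and 3, at 225 and 235. In edgeR's fit the log2 fold change came to 0.20 with a standard error of 0.096 (95% confidence interval -0.0028 to 0.41) and an adjusted p of 0.550. It was 0.21 without control replicate 3 (edgeR's adjusted p = 0.123). Scaled by library size only, it was 0.087 (edgeR's adjusted p = 0.792).

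miR-25-3p, whose seed is that of the miR-92 miRNAs, was at 30773, 34161 and 32097 CPM in the overexpression group and at 27248, 26938 and 28599 CPM in the control group. The lowest overexpression sample was above the highest control sample, and the means were 32344 ± 1708 and 27595 ± 883 CPM (SD, n = 3). In edgeR's fit the log2 fold change came to 0.23 with a standard error of 0.067 (95% confidence interval 0.085 to 0.37) and an adjusted p of 0.306. This was the 7th smallest unadjusted p of the 552 miRNAs. It was 0.24 without control replicate 3 (adjusted p = 0.00307 from edgeR). With the library size alone it was 0.11 (adjusted p = 0.524 from edgeR), and in the deposited TPM control replicate 3, at 31109, was above overexpression replicates 1 and 3, at 30660 and 31040.

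miR-25-5p, the rarest member, was at 137, 150 and 152 CPM in the overexpression group and at 126, 125 and 175 CPM in the control group. Control replicate 3 was the highest of the 6 samples and control replicates 1 and 2 were the lowest. The log2 fold change came to 0.045 ± 0.13 (SE, edgeR's adjusted p = 0.911) and turned to -0.079 with the library size alone. Without control replicate 3 it was 0.20 (edgeR's adjusted p = 0.207).

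**Figure D2:**
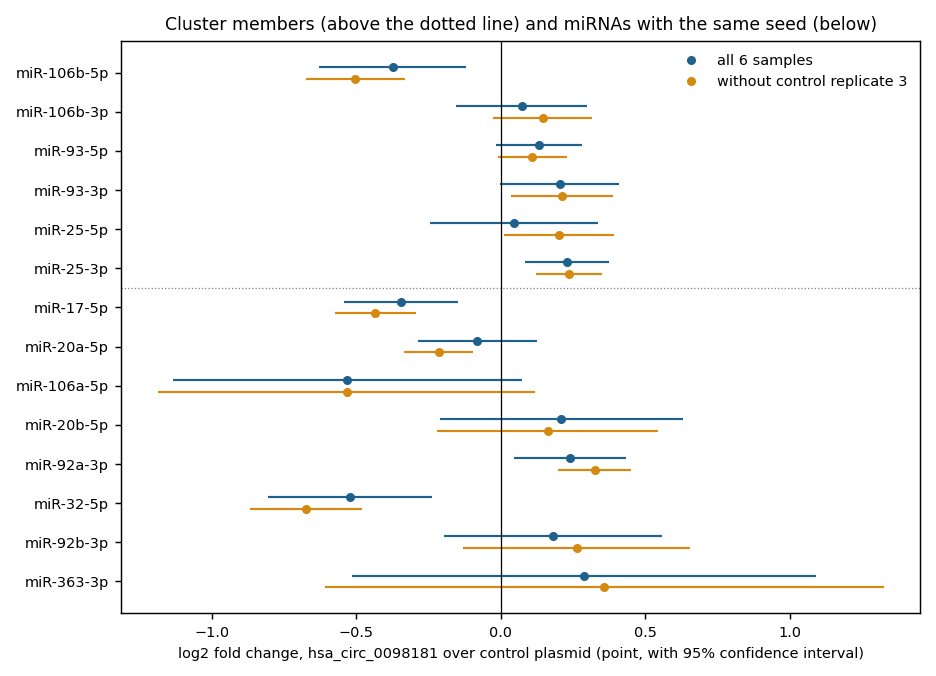
Log2 fold change of the overexpression over the control group (horizontal axis) with its 95% confidence interval for the 6 members and for 8 miRNAs with the seed of a member, from all 6 samples and without control replicate 3. From all 6 samples, miR-106b-5p lies at -0.37, with miR-17-5p at -0.34, miR-106a-5p at -0.53 and miR-20a-5p at -0.082. miR-93-5p at 0.13 and miR-20b-5p at 0.21, of the same seed, lie above 0. miR-25-3p lies at 0.23, with miR-92a-3p at 0.24, miR-92b-3p at 0.18 and miR-363-3p at 0.29, whereas miR-32-5p lies at -0.52.

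As a whole, the cluster took 5.97%, 6.14% and 6.11% of the counts in overexpression replicates 1 to 3 and 5.47%, 5.83% and 6.17% in the controls (replicates 1 to 3). After TMM normalization the summed level was 59890, 66673 and 63154 CPM in the overexpression group and 54497, 56470 and 56764 CPM in the control group. The overexpression samples were above all control samples on this scale, and the difference of the mean log2 levels was 0.18 (two-sided exact permutation test, p = 0.1, which is the smallest that 3 samples against 3 allow). With the library size alone the difference was 0.061 (exact permutation test, p = 0.4), and control replicate 3 had the highest share of the 6 samples. Of 11 single values of the cluster tested in this way, the smallest adjusted p was 0.275.

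The composition of the cluster does not depend on the library size. miR-106b gave 1.04%, 0.852% and 0.935% of the cluster's counts with hsa_circ_0098181 and 1.27%, 1.21% and 1.13% in control replicates 1 to 3. All overexpression samples were below all control samples, by 0.26 percentage points on average (exact permutation test, p = 0.1, adjusted p = 0.275 over the 11 values). The miR-25 hairpin gave 51.1% to 51.6% in the overexpression group and 47.9% to 50.7% in the control group, and the miR-93 hairpin 47.4% to 48.0% and 48.2% to 50.9%, again with no overlap (exact permutation test, p = 0.1 for each). The differences of 1.76 and -1.50 percentage points came down to 0.92 and -0.66 without control replicate 2, the sample with the lowest miR-25 and the highest miR-93 share. The 3 shares of a sample sum to 100%, so that they are not independent of each other. The log2 ratio of miR-25-3p to miR-106b-5p was 6.49, 6.88 and 6.67 in the overexpression group and 5.95, 5.93 and 6.38 in the control group, a difference of 0.60 (0.74 without control replicate 3). This ratio was chosen after the values were seen and was not tested.

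The arms of a hairpin come from the same precursor molecule, so that their ratio shows the balance of both products within a sample. The hairpins of the cluster differed widely in this balance. miR-93-3p made up 0.721% to 0.854% of the miR-93 counts over the 6 samples and miR-25-5p 0.437% to 0.608% of the miR-25 counts. By contrast, miR-106b-3p made up 35.5% to 49.0% of the miR-106b counts.

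The log2 ratio of miR-106b-5p to miR-106b-3p was 0.30, 0.059 and 0.19 with hsa_circ_0098181 and 0.81, 0.86 and 0.21 in control replicates 1 to 3. Control replicates 1 and 2 were above all other samples, and control replicate 3 lay within the range of the overexpression group. The difference of the means was -0.44 (exact permutation test, p = 0.2). It was -0.65 without control replicate 3 (exact permutation test, p = 0.2, which is the smallest that 2 samples against 3 allow). For miR-93 the log2 ratio of 5p to 3p was 6.86 to 7.01 and 6.95 to 7.10, a difference of -0.072 (exact permutation test, p = 0.5). For miR-25 it was -7.83 to -7.72 and -7.75 to -7.35, a difference of -0.17 (exact permutation test, p = 0.3) that was -0.035 without control replicate 3.

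The same ratio was computed, after these values were seen, for the 68 hairpins whose arms each had a mean of at least 100 counts. The groups did not overlap in 19.1% of them, and the 3 hairpins of the cluster were not among these. The difference of miR-106b was the third most negative of the 68, after miR-17 at -0.54 and miR-18a at -0.45, both hairpins of the miR-17-92 cluster. miR-582 and miR-423 followed closely at -0.43 each. By absolute difference miR-106b ranked 6, since miR-100 at 0.59, miR-125a at 0.47 and miR-532 at 0.45 differed more in the other direction. The median over the 68 was -0.015, with a range from -0.54 to 0.59. miR-20a, whose 5p arm has the seed of miR-106b-5p, was at -0.18.

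**Figure D3:**
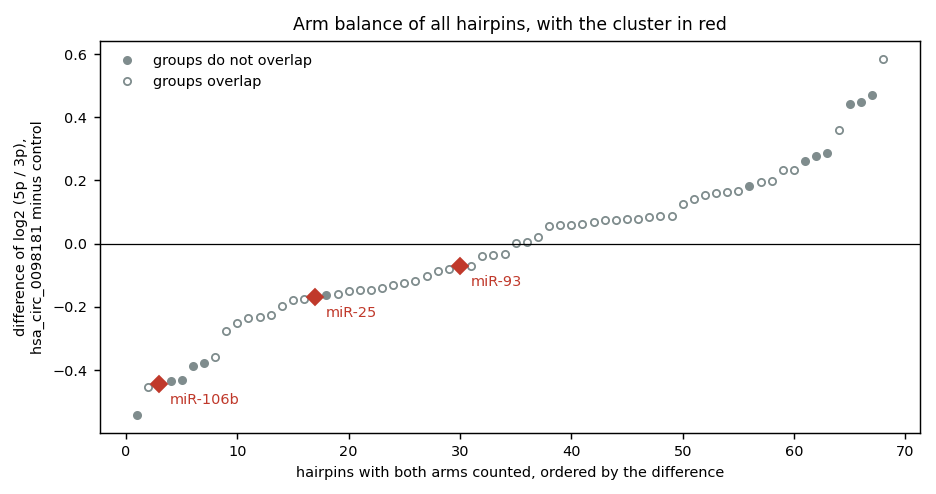
Difference between the groups of the log2 ratio of 5p to 3p (vertical axis) for 68 hairpins in ascending order (horizontal axis), where filled grey points are hairpins whose groups do not overlap and red diamonds are the cluster, whose groups overlap for all 3. miR-106b at -0.44 is 3rd from the lower end, miR-25 at -0.17 is 17th and miR-93 at -0.072 is 30th.

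The miRNAs with the seeds of the members were compared next. In the pool of all counts with the seed AAAGUGC, miR-93-5p took 62.1% over the 6 samples, miR-20a-5p 32.8%, miR-17-5p 4.25% and miR-106b-5p 0.804%. miR-519d-3p and miR-526b-3p of this pool had 0 counts in every sample. miR-106b-5p and miR-93-5p together held 64.4%, 66.9% and 64.2% of the pool in overexpression replicates 1 to 3 and 58.4%, 60.8% and 65.1% in the controls (replicates 1 to 3). Control replicate 3 lay among the overexpression samples, and the difference was 3.71 percentage points (exact permutation test, p = 0.3). Without this sample the difference was 5.55 (exact permutation test, p = 0.2, the smallest that 2 samples against 3 allow).

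Of the 6 tested miRNAs with this seed, 4 had a log2 fold change below 0 and 2 above, with a median of -0.21, and 0 passed an adjusted p of 0.05 by edgeR. miR-17-5p was at 1788, 1604 and 1689 CPM in the overexpression group and at 2263, 2260 and 1931 CPM in the control group, and its log2 fold change was -0.34 ± 0.091 (SE, edgeR's adjusted p = 0.295). Its groups did not overlap, as those of miR-106b-5p did not. miR-20a-5p had a log2 fold change of -0.082 and miR-20b-5p of 0.21, the latter with 64 to 104 counts per sample. Without control replicate 3, 3 of the 6 were called, miR-106b-5p, miR-17-5p and miR-20a-5p, all lower, against the background of 9.91% of all miRNAs.

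In the pool with the seed AUUGCAC, miR-25-3p took 77.4% over the 6 samples, miR-92a-3p 22.3% and miR-32-5p 0.270%. The share of miR-25-3p was 77.5%, 78.0% and 76.6% in the overexpression group and 78.7%, 77.9% and 75.7% in the control group. The overexpression samples lay within the range of the control samples, and the means of 77.4% ± 0.682 and 77.4% ± 1.51 (SD, n = 3) differed by -0.070 percentage points (exact permutation test, p = 1). Of the 5 tested miRNAs with this seed, 4 had a log2 fold change above 0 and miR-32-5p was at -0.52 (adjusted p = 0.295 from edgeR). miR-92a-3p, at 8835 to 9702 CPM in the overexpression group and 7258 to 9050 CPM in the control group, had a log2 fold change of 0.24 (adjusted p = 0.421 from edgeR). Without control replicate 3, miR-25-3p and miR-92a-3p were called higher and miR-32-5p lower by edgeR. These are 3 of the 5, against the background of 9.91% of all miRNAs in that fit.

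The cluster was set against its paralogs by the ratio of summed counts. The log2 ratio to the miR-17-92 cluster was 0.63, 0.66 and 0.57 in the overexpression group and 0.22, 0.27 and 0.69 in the control group. Control replicates 1 and 2 were below the overexpression samples and control replicate 3 above them, so that the difference of 0.22 was within the spread (exact permutation test, p = 0.4). It was 0.37 without control replicate 3 (exact permutation test, p = 0.2, the smallest that 2 samples against 3 allow). Of the 11 miR-17-92 products tested, 4 were above and 7 below 0 in log2 fold change, with a median of -0.12 and 0 called. Without control replicate 3, 6 of the 11 were called, 1 higher and 5 lower, with a median of -0.30, against 9.91% of all miRNAs. miR-19b-3p and miR-92a-3p of this list can also come from the miR-106a-363 cluster. The products particular to the miR-106a-363 cluster were scarce, with miR-20b-5p at 64 to 104 and miR-106a-5p at 17 to 41 counts per sample. Without miR-19b-3p and miR-92a-3p in its sum, the log2 ratio of the miR-106b-25 cluster to it was 11.7 to 12.3 in the overexpression group and 11.6 to 12.0 in the control group (exact permutation test, p = 0.4).

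Among 146 other miRNAs with a mean of at least 100 CPM, miR-21-5p had the pattern most like the summed level of the cluster, with a Pearson correlation of log2 CPM of 0.98 over the 6 samples. miR-215-5p (0.97), miR-99a-5p (0.96), miR-125b-5p (0.96) and miR-103a-3p (0.95) followed. Within the cluster, miR-25-3p correlated with miR-93-3p at 0.95 and with miR-93-5p at 0.84, and miR-106b-5p correlated with miR-25-3p at -0.94 and with its own hairpin partner miR-106b-3p at -0.80. These correlations share 6 libraries and their scaling factors and are a description.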

How the data were processed

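Small RNA of 6 Huh7 samples was sequenced, and samples were grouped by their labels. The authors deposited counts of reads per mature miRNA, without normalization, and TPM values, which equal the count scaled by the sample's total (CPM) to within 0.00303 and were deposited without a length term. The submitters' processing notes list TopHat2 2.0.9, TopHat and Bowtie with the build hg38. The miRNA annotation and the handling of multiply matching reads are not given in the sources used here.

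Counts were fitted over the whole table with R 4.3.3 and edgeR 4.0.16 (filterByExpr with a minimum count of 10 and a total of 15, TMM, quasi-likelihood test, group as the only term, two-sided, Benjamini-Hochberg adjustment over all miRNAs tested, threshold 0.05). Ratios of arms had 0.5 added to each count, and single values were compared by two-sided exact permutation tests (SciPy 1.17.1). Alternatives were DESeq2 1.42.0, other scalings and filters, limma 3.58.1 on log2 of CPM with 1 added, a replicate block and leaving out each sample. Members and lists were chosen with earlier results of these data known. The named miRNAs were the members, those sharing a seed, the paralog clusters and the 5 most alike in pattern; others were named after their values were seen. On simulated counts, 98.0% of 200 miRNAs changed 2-fold and 76.5% of 200 changed 1.5-fold were called, with 7 and 6 false calls. The simulation changed 200 miRNAs together and held no sample that stood apart as control replicate 3 did. Its recovery therefore need not hold for these samples. The 6 pairs of replicates differed by more than counting noise (chi-square per degree of freedom 18.2 to 157). Sequences were matched by name to RefSeq for all 6 members.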

Additional observations from a re-analysis of the deposited data

How the results depend on the processing

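With all 6 samples, 0 members were called under every alternative fit. Over all miRNAs, 0 were called with TMM factors and the filter on low counts, 3 when scaled by library size alone and 6 with TMM factors and no filter. In the deposited TPM, added after the data were seen, the groups did not overlap for 1 member in place of 3. With each sample left out in turn, the count ran from 0 to 2 members and from 0 to 56 miRNAs, and both upper values were those without control replicate 3 (miR-106b-5p and miR-25-3p). miR-106b-5p kept a log2 fold change below 0 in all fits (-0.50 to -0.32), and miR-25-3p, miR-93-3p and miR-93-5p kept theirs above 0 in all fits. The log2 fold change of miR-106b-3p turned to -0.047 with the library size alone and to -0.0085 when miR-122-5p was taken out of the library size. That of miR-25-5p turned to -0.079 and -0.039 in these fits and to -0.043 without control replicate 1 or 2, and was at most 0.20 with a sample left out. These 2 scalings moved the median of all miRNAs to -0.11 and -0.075. The difference in the share of miR-25-3p in its seed pool ran from -0.91 to 0.55 percentage points with a sample left out. The causes were not tested. The other single values kept their direction under the alternatives that were run. For the hairpin shares, the pool share of miR-106b-5p with miR-93-5p and both paralog ratios, only leaving out a sample could change the value. Changes of 1.5-fold or less, and perhaps larger ones, can be missed with 3 samples against 3.

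Equal replicate numbers were not taken as pairs in the main fit. The correlation of same-numbered deviations over 152 miRNAs was -0.025, 0.15 and 0.24, and 3 of 6 samples correlated best with their own number. With 3 samples per group these values cannot decide whether the samples were paired. With the replicate block, 0 members and 0 miRNAs were called. The difference of the summed level of the cluster was 0.18, which the block leaves unchanged by construction. An exact test over the signs of the 3 same-numbered differences gave p = 0.25, the smallest that it allows.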
